A study of Mus musculus with 22 samples.

Results

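The glycolysis enzymes and hypoxia response genes were followed across 22 pancreatic tumours grown in mice. They were taken as a list of 38 genes, 20 of glycolysis and 18 of the hypoxia response, and looked up by name in the deposited table of 17966 genes. Of these, 37 were found by name, 19 in the glycolysis subset and 18 in the hypoxia subset, and all 37 passed the filter on low values. Pgk1 passed it mostly through untreated tumours, where it was highest. The enolase gene Eno1 was not found by name and is not analysed here.

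The tumours were orthotopic, that is, grown in the pancreas, from PDA.7940B, a polyclonal cell line made from pancreatic ductal adenocarcinoma of the KPC mouse model. The labels give the genotype WT for all samples. One group of 6 received 1.2 mg of beta-glucan, a yeast or fungal cell wall polysaccharide sensed by myeloid cells, intravenously. Another 6 received 0.1 mg of anti-CD40 (clone FGK45), an agonist antibody against an activating receptor of antigen-presenting cells, into the peritoneum. A group of 5 received both agents, with doses not given in the labels, and 5 tumours were untreated. Each single agent was given 1 time, and treated tumours were taken 10 days after treatment. No day is given for the untreated tumours. All groups share this 1 tumour line. Nothing in the labels ties tumours to separate mice, so a p-value measures only how these samples spread.

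RNA came from 5 µm sections of fixed, paraffin-embedded tissue and was read at the 3′ end of transcripts. A value therefore reads a transcript's 3′ end and does not tell splice forms or full-length abundance apart. Depth as recovered from the values was 7131052 to 8738064 reads in beta-glucan tumours, 6327092 to 21173617 in anti-CD40 tumours, 12240871 to 18843110 in combination tumours and 7375930 to 9340171 in untreated tumours. Genes of pancreatic acinar cells, the enzyme-secreting cells of the normal organ, took a share of all normalized counts that moved with treatment. That share had a median of 2.91% (0.614 to 19.5%) in beta-glucan tumours, 33.9% (0.678 to 74.9%) in anti-CD40 tumours, 32.3% (0.660 to 39.7%) in combination tumours and 3.37% (0.0393 to 19.02%) in untreated tumours. Epithelial markers were present in every group, with none of 17 at 0 in all tumours of a group. Their sum ran from 12122 to 29853 normalized counts in beta-glucan tumours, 5019 to 25780.4 in anti-CD40 tumours, 4624 to 10564 in combination tumours and 36012 to 47724 in untreated tumours.

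Glycolysis splits glucose into pyruvate in the cytosol, and tumour cells often run it fast and release the product as lactate. When oxygen is scarce, the prolyl hydroxylases that mark the alpha subunit of hypoxia-inducible factor (HIF) for destruction slow down, and HIF then binds short core motifs near genes for glucose transport, glycolysis, pH control, new vessels and mitochondrial turnover. Pancreatic ductal adenocarcinoma is known for dense stroma, few vessels and low oxygen. In bulk tumours such as these, fewer cells of a type and less RNA per cell cannot be told apart.

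Because HIF binds the core ACGTG or GCGTG, the 250 bases before the RefSeq transcription start (GRCm38.p6) were searched for both, on both strands, with the palindrome CACGTG counting once on each. RefSeq promoters matched 33 of the 37 genes. A gene with several starts counted if any of its windows held a core, here and over all genes. Some genes, Vegfa, Kdm3a and Pdk1 among them, also had a window without a core. At least 1 core lay in 30 of these 33 genes (90.9%), against 11226 of 27025 genes with a promoter in the table (41.5%). Promoters of the hypoxia subset held one in 15 of 15 genes and those of the glycolysis subset in 15 of 18 (83.3%). The stricter ACGTG was present in 20 of 33 (60.6%), against 18.5% of all genes. Among genes called lower in at least 1 comparison with untreated tumours a core was present in 14 of 14, and in 16 of 19 of the others (84.2%). The list holds glycolysis and hypoxia-induced genes by choice, so its excess of cores over all genes was built in. That excess is not a result about these tumours. Both cores contain CG, and promoters of like CG content were not compared. The following 250-base windows are of genes that differ in the calls described below. Bnip3, Adm, Hk2 and Pgk1 were called lower with anti-CD40 and with the combination, Pgk1 at very low counts. Pdk1, a textbook HIF target, was not called. Each is written in gene orientation up to the base before the start, with the cores in capitals, as CACGT or CACGC where the core is on the opposite strand.
Bnip3 (chr7:138909507-138909756, - strand): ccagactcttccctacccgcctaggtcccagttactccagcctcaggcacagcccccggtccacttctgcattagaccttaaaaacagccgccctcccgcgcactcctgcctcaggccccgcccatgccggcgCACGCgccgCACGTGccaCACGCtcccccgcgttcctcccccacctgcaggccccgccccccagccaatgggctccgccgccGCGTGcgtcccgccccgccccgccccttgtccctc
Adm (chr7:110627407-110627656, + strand): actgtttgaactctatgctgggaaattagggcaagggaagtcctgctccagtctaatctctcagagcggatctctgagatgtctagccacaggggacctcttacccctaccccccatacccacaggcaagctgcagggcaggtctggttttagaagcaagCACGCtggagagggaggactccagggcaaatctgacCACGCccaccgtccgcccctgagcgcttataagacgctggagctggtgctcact
Hk2 (chr6:82774455-82774704, - strand): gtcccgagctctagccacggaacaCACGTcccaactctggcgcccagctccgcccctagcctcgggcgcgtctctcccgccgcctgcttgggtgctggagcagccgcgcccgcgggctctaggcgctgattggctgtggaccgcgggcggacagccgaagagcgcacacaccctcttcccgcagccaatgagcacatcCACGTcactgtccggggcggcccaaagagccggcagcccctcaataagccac
Pgk1 (chrX:106186850-106187099, + strand): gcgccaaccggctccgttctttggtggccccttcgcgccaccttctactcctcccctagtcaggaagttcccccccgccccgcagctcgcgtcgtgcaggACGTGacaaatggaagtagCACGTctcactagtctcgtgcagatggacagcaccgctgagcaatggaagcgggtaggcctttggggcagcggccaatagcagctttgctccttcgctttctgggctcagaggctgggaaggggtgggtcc
Pdk1 (chr2:71872974-71873223, + strand): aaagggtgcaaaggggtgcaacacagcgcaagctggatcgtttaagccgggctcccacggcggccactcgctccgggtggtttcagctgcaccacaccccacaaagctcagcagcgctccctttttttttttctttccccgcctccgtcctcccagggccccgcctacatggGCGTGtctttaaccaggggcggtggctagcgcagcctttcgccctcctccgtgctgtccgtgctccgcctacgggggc
The Bnip3 window held 5 core matches, the Hk2, Adm and Pgk1 windows 2 each, and the Pdk1 window 1. These 5 windows do not stand for the whole list. The windows of Ankrd37 and P4ha1, which were not called, held 4 and 3. Those of Pfkl and Car9, which were called lower, held 1 each. A match describes the letters only and is not a binding site.

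Values per gene are the deposited normalized counts, tested as log2(value + 1) with limma across 14278 genes, with Benjamini-Hochberg adjustment and a threshold of 0.05. Log2 fold changes are treated over untreated, with their standard error (SE). The 3 treated groups are each set against the same 5 untreated tumours, so their fold changes share those controls and are given side by side.

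With beta-glucan, 2 of 37 genes fell and 0 rose (limma), against 1.32% lower and 5.09% higher (6.42% in either direction) among all genes tested. At an unadjusted p under 0.05 there were 13 of the 37 with beta-glucan (35.1%), against 2732 of all genes (19.1%). Of the 2 calls, Bnip3 was lost without beta-glucan tumour 5 (log2 fold change -0.73), and Pfkl without any 1 of beta-glucan tumours 3 and 5 or untreated tumours 1, 3, 5 and 6 (-0.99 to -0.84). With anti-CD40, 14 of 37 fell (37.8%) and 1 rose, against 7.56% lower and 11.0% higher (18.6% in either direction) among all genes. With the combination, 12 of 37 fell (32.4%) and 2 rose, against 15.8% lower and 18.2% higher (34.0% in either direction) among all genes. Both Bnip3, a mitophagy receptor, and Pfkl, a phosphofructokinase subunit, fell in all 3 treated groups.

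Both subsets had medians below 0 in each treated group. The median log2 fold change was -0.46 in the glycolysis subset and -0.47 in the hypoxia subset with beta-glucan, beside 0.02 over all genes tested. With anti-CD40 the medians were -0.71 for glycolysis and -0.64 for hypoxia, beside 0.002 over all genes, and with the combination -0.67 and -0.50, beside -0.005. Without untreated tumour 6 the hypoxia median with anti-CD40 was -1.03. By calls, anti-CD40 lowered 8 of 19 glycolysis genes and 6 of 18 hypoxia genes, and the combination lowered 5 of 19 and 7 of 18.

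**Figure D1:**
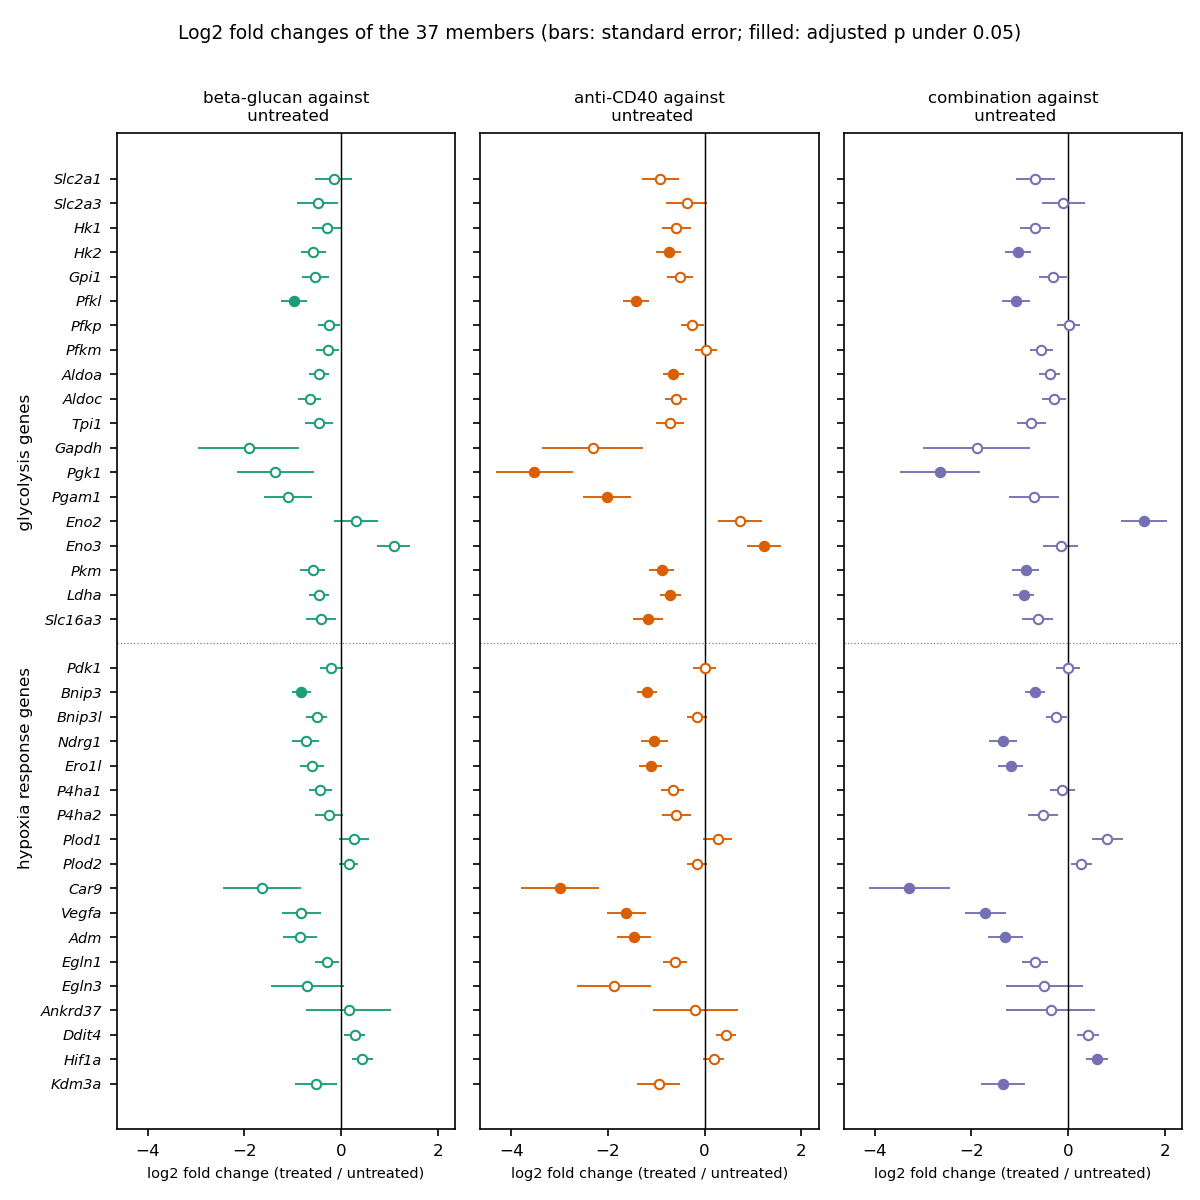
Log2 fold change (x axis) of each of the 37 genes in each treated group against untreated tumours, with bars of 1 SE and filled points for genes past the adjusted p threshold of 0.05. Most points lie left of 0 in all 3 panels, and 2, 15 and 14 genes pass the threshold with beta-glucan, anti-CD40 and the combination.

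As a mean over the subset's genes in each tumour, glycolysis stood at 8.93 ± 0.19 on the log2 scale in beta-glucan tumours, 8.63 ± 0.52 in anti-CD40 tumours, 8.80 ± 0.30 in combination tumours and 9.44 ± 0.24 in untreated tumours (SD, n = 6, 6, 5 and 5). Of the treated tumours, 5 of 6, 6 of 6 and 5 of 5 lay below every untreated tumour. The hypoxia mean was 8.92 ± 0.18, 8.55 ± 0.48 and 8.69 ± 0.27 in the same treated groups, and 9.31 ± 0.38 in untreated tumours, with 0 of 6, 4 of 6 and 3 of 5 treated tumours below every untreated one. In untreated tumour 6 the hypoxia mean was 8.72, the lowest of its group, and the glycolysis mean 9.82, the highest. The mean of 17 epithelial markers was also lower in the treated groups, at 8.23 ± 0.24, 7.97 ± 0.89 and 7.24 ± 0.46. In untreated tumours it was 9.01 ± 0.23. This mean was lowest with the combination, while both subset means were lowest with anti-CD40. Untreated tumour 6 had the lowest epithelial mean of its group (8.67) beside its highest glycolysis mean.

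**Figure D2:**
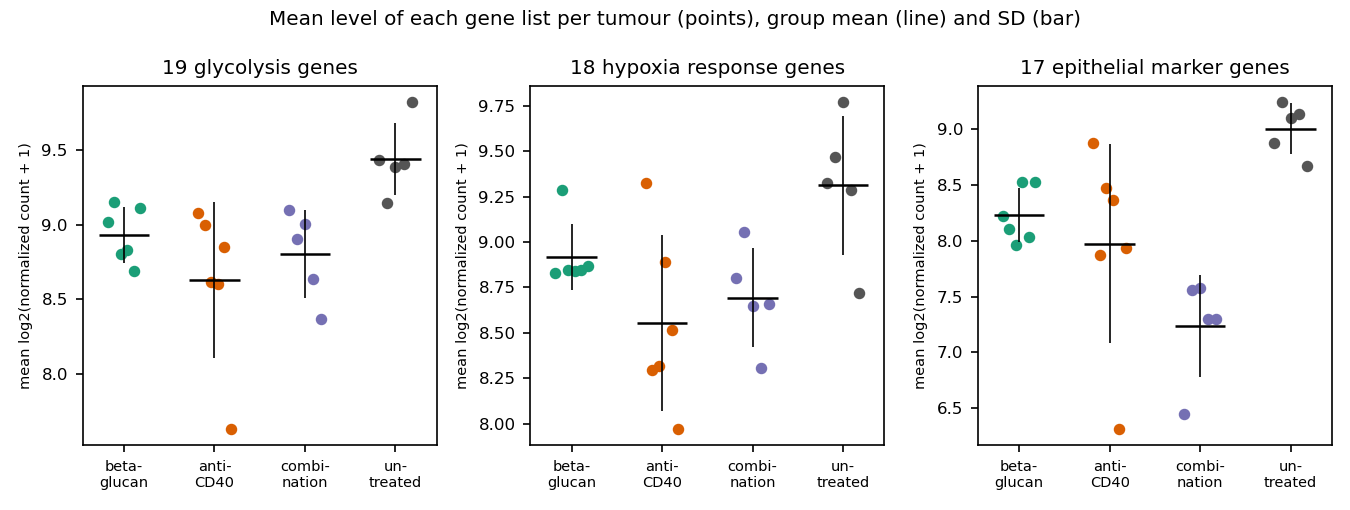
Mean log2(normalized count + 1) per tumour (y axis) over 19 glycolysis genes, 18 hypoxia response genes and 17 epithelial marker genes, with the group mean (line) and SD (bar). Glycolysis means of 16 of the 17 treated tumours lie below every untreated tumour, while hypoxia means of treated and untreated tumours overlap.

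Neither of the glucose transporter genes was called. Slc2a1, the main glucose transporter of tumour cells (GLUT1), ranged from 839 to 1293 normalized counts with a median of 1072 in beta-glucan tumours, from 206 to 1818 with a median of 539 in anti-CD40 tumours, and stood at 838, 1071, 917, 324 and 758 in combination tumours and at 997, 1548, 1886, 887 and 814 in untreated tumours. The groups overlapped widely, and its log2 fold changes were -0.16 ± 0.39 (adjusted p = 0.881) with beta-glucan, -0.91 ± 0.39 (adjusted p = 0.109) with anti-CD40 and -0.67 ± 0.41 (adjusted p = 0.216) with the combination. Slc2a3, a high-affinity transporter of neurons and leukocytes, did not pass the threshold, with adjusted p of 0.598, 0.606 and 0.89.

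Of the hexokinase genes, Hk2 fell in 2 of the 3 groups and Hk1 in none. Hk2, which traps glucose as its phosphate and is the inducible tumour form, ranged from 1394 to 2563 normalized counts with a median of 1837 in beta-glucan tumours, from 719.9 to 2561 with a median of 1915 in anti-CD40 tumours, and stood at 1697, 1294, 1885, 1067 and 1043 in combination tumours and at 3149.7, 2384, 3103, 3516 and 2029.8 in untreated tumours. Every combination tumour lay below every untreated tumour, while the other 2 treated groups overlapped the untreated range. Its log2 fold change was -1.03 ± 0.27 (SE), adjusted p = 0.00399, with the combination, -0.74 ± 0.25 (adjusted p = 0.0433) with anti-CD40 and -0.57 ± 0.25 (adjusted p = 0.212) with beta-glucan. The anti-CD40 call of Hk2 was lost in 8 of the 22 fits that left out 1 tumour, with -0.50 without anti-CD40 tumour 6. The constitutive Hk1 did not pass in any group, with adjusted p of 0.658, 0.182 and 0.0932.

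Phosphofructokinase commits sugar to glycolysis, and its 3 subunit genes differed in their calls. Pfkl, the liver-type subunit (chr10:77986947-78010083, GRCm38.p6), ranged from 1303 to 2642 normalized counts with a median of 2418 in beta-glucan tumours, from 671 to 2194 with a median of 1771 in anti-CD40 tumours, and stood at 2398, 1218, 2566, 2538 and 1391 in combination tumours and at 4329, 3471, 3913, 3979 and 4789.6 in untreated tumours. No treated tumour reached the lowest untreated value. The fold changes were -0.97 ± 0.27 (adjusted p = 0.0331), -1.42 ± 0.27 (adjusted p = 0.000745) and -1.08 ± 0.29 (adjusted p = 0.00507) on the log2 scale for beta-glucan, anti-CD40 and the combination, or 1.963-fold, 2.67-fold and 2.12-fold lower. Non-overlapping groups in this direction were found for 2, 5 and 6 of the 37 genes in the 3 comparisons, against 2.87%, 4.08% and 10.3% of all genes. Pfkp, the platelet-type subunit, ranged from 797 to 1197 normalized counts with a median of 1071 in beta-glucan tumours, from 693 to 1454 with a median of 1031 in anti-CD40 tumours, and stood at 1401, 1048, 1491, 1565 and 822 in combination tumours and at 976, 869, 1192, 1288 and 2039.8 in untreated tumours, but passed in no group (adjusted p 0.607, 0.498 and 0.965). Pfkm, the muscle-type subunit, was likewise not called, with log2 fold changes of -0.28 ± 0.23, 0.03 ± 0.23 and -0.55 ± 0.24.

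In the middle of the pathway, the aldolase Aldoa and the mutase Pgam1 were called with anti-CD40. Aldoa, which splits the 6-carbon sugar, ranged from 4851 to 7401 normalized counts with a median of 6516 in beta-glucan tumours, from 4138 to 8026 with a median of 5219 in anti-CD40 tumours, and stood at 7902, 5103, 7183, 9024 and 4468 in combination tumours and at 8585, 6416, 7591, 8502 and 12328 in untreated tumours. The groups overlapped, and anti-CD40 alone passed (log2 fold change -0.65 ± 0.21, adjusted p = 0.0368), a call lost in 7 of the 22 fits that left out 1 tumour, with -0.51 without untreated tumour 6. Among other fits, that call was also lost with the count test edgeR and with anti-CD40 and untreated tumours fitted alone. Pgam1, phosphoglycerate mutase, ranged from 11.0 to 70.3 normalized counts with a median of 44.7 in beta-glucan tumours, from 8.15 to 35.6 with a median of 18.8 in anti-CD40 tumours, and stood at 59.2, 20.7, 67.5, 77.0 and 40.7 in combination tumours and at 68.2, 50.1, 93.0, 42.4 and 229 in untreated tumours. All 6 anti-CD40 tumours were below every untreated tumour, with a log2 fold change of -2.02 ± 0.49 (SE), adjusted p = 0.00562, while the combination gave -0.70 ± 0.52 (adjusted p = 0.316). The difference between combination and anti-CD40 tumours for Pgam1 did not itself pass (log2 difference 1.31 ± 0.49, adjusted p = 0.177).

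Pgk1 and Gapdh had very low counts here. Pgk1, phosphoglycerate kinase, which makes ATP directly (chrX:106187100-106203699), ranged from 3.18 to 20.9 normalized counts with a median of 5.85 in beta-glucan tumours, from 0 to 6.34 with a median of 0 in anti-CD40 tumours, and stood at 2.57, 11.6, 8.34, 0 and 0 in combination tumours and at 15.0, 18.99, 7.90, 35.5 and 37.6 in untreated tumours. It was listed at 0 in 4 anti-CD40 and 2 combination tumours and in no beta-glucan or untreated tumour. On the log2(value + 1) scale it fell by 3.52 ± 0.80 with anti-CD40 (adjusted p = 0.00297) and by 2.64 ± 0.83 with the combination (adjusted p = 0.016). The combination call of Pgk1 was lost without combination tumour 5 (log2 fold change -2.21). Among other fits, it was also lost with the count tests edgeR and DESeq2. Pgk1 reads numbered 16 in anti-CD40 tumours, 33 in combination tumours and 110 in untreated tumours. No anti-CD40 tumour reached the normalized count of 10 that the filter asks for. Pgk1 was thus tested mostly through its untreated values, so the filter itself leaned towards a lower call. Gapdh, the glyceraldehyde phosphate dehydrogenase often used as a reference gene, ranged from 0 to 77.5 normalized counts with a median of 36.8 in beta-glucan tumours, from 0 to 109 with a median of 16.5 in anti-CD40 tumours, and stood at 29.6, 107, 6.67, 11.95 and 9.70 in combination tumours and at 105, 47.5, 66.7, 34.4 and 200.3 in untreated tumours. Its SE exceeded 1 log2 unit and it passed in no group (adjusted p 0.338, 0.132 and 0.196). The last 300 bases of Gapdh match 89 other annotated genes, 85 of them pseudogenes, over at least 75 bases at 97% identity or more, so its reads cannot be assigned with certainty. Tpi1, triose phosphate isomerase, and Gpi1 and Aldoc were called in no group.

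At the end of the pathway, Pkm and Ldha fell with anti-CD40 and with the combination, and Slc16a3 with anti-CD40. Pkm, pyruvate kinase of muscle and tumours, ranged from 7003 to 12140.1 normalized counts with a median of 11156 in beta-glucan tumours, from 4176 to 13107 with a median of 8859 in anti-CD40 tumours, and stood at 11622, 5708, 9741, 8732 and 6328 in combination tumours and at 15233, 9613, 13164, 17284 and 22259 in untreated tumours. The groups overlapped at the lowest untreated tumour, with log2 fold changes of -0.89 ± 0.26 (adjusted p = 0.0186) for anti-CD40 and -0.88 ± 0.27 (adjusted p = 0.0152) for the combination. The anti-CD40 call of Pkm was lost without untreated tumour 5 (-0.84) or 6 (-0.74). Ldha, which turns pyruvate into lactate, ranged from 3213 to 4628 normalized counts with a median of 3903 in beta-glucan tumours, from 1557 to 4278 with a median of 3665 in anti-CD40 tumours, and stood at 3306, 2969, 3324, 2459 and 2044 in combination tumours and at 5733, 4119.7, 5487, 5587 and 5479.6 in untreated tumours. Every combination tumour was below the untreated range, and its log2 fold change was -0.92 ± 0.22 (SE), adjusted p = 0.00221, with -0.71 ± 0.21 (adjusted p = 0.0198) for anti-CD40. The anti-CD40 call of Ldha was lost without untreated tumour 1 (-0.68). Slc16a3, a lactate exporter (MCT4), ranged from 1566 to 2982 normalized counts with a median of 2343 in beta-glucan tumours, from 589.5 to 2519 with a median of 1423 in anti-CD40 tumours, and stood at 2695, 1615, 2494, 2576 and 1004 in combination tumours and at 3027, 2075, 2570.0, 2805 and 5477 in untreated tumours. It passed with anti-CD40 alone, with a log2 fold change of -1.17 ± 0.31 (adjusted p = 0.0104), beside -0.63 ± 0.33 (adjusted p = 0.143) with the combination. A 3′ end match in at least 1 other annotated gene was also found for Pkm, Ldha, Aldoa, Bnip3, Ndrg1, Gpi1, Pfkp and Tpi1. A part of the reads of these genes may therefore be shared.

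A pair of enolase genes were called higher, in 1 group each. Eno3, the muscle form, ranged from 95.01 to 215 normalized counts with a median of 158 in beta-glucan tumours, from 105 to 283 with a median of 168 in anti-CD40 tumours, and stood at 72.0, 65.2, 90.0, 27.9 and 75.7 in combination tumours and at 63.2, 57.8, 36.9, 113 and 98.9 in untreated tumours. It rose with anti-CD40 (1.23 ± 0.35, adjusted p = 0.0143), did not pass with beta-glucan (1.08 ± 0.35, adjusted p = 0.0646) and gave -0.15 ± 0.36 (adjusted p = 0.789) with the combination. The anti-CD40 call of Eno3 was lost without untreated tumour 3 (1.01). Every combination tumour lay below every beta-glucan and every anti-CD40 tumour, as was so for 5.80% and 0.497% of all genes. Of 4 skeletal muscle markers tested, 0 were called higher in any group and 0, 1 and 1 lower with beta-glucan, anti-CD40 and the combination, and the myosin gene Myh4 was at 0 in every treated tumour. Eno2, the form of neurons and endocrine cells, ranged from 20.2 to 51.7 normalized counts with a median of 37.2 in beta-glucan tumours, from 27.2 to 81.8 with a median of 50.7 in anti-CD40 tumours, and stood at 111, 63.3, 83.4, 191 and 44.6 in combination tumours and at 29.1, 18.99, 18.4, 18.3 and 101 in untreated tumours. It rose with the combination (1.57 ± 0.47, adjusted p = 0.0121), and untreated tumour 6 stood at 101 while the others of its group lay at or below 29.1. Of 8 islet markers, 6 were called higher with the combination and 7 with anti-CD40, where Eno2 did not pass (0.73 ± 0.45, adjusted p = 0.286). Their sum ranged from 433 to 36469.7 normalized counts in combination tumours and from 3.45 to 6026 in untreated tumours. The part of islet cells in the Eno2 difference was not tested.

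**Figure D3:**
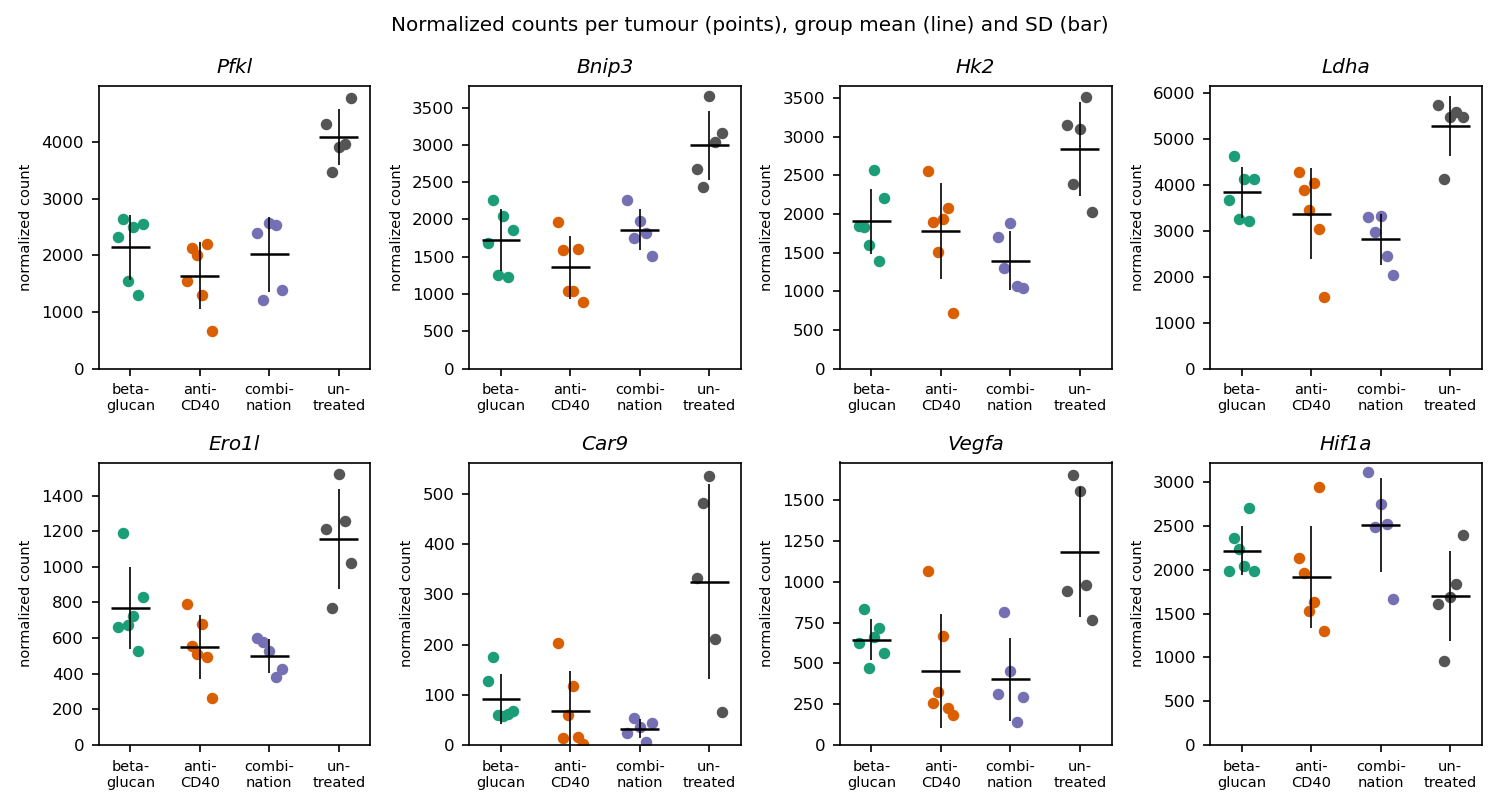
Normalized counts per tumour (y axis, own scale in each panel) of selected glycolysis and hypoxia response genes, with group mean (line) and SD (bar). For Pfkl and Bnip3 every treated tumour lies below every untreated tumour, while Hif1a overlaps in all groups.

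In the hypoxia subset, the mitophagy receptor Bnip3 (chr7:138890836-138909519) separated treated from untreated tumours. Its values ranged from 1223 to 2255 normalized counts with a median of 1776 in beta-glucan tumours, from 899 to 1973 with a median of 1317 in anti-CD40 tumours, and stood at 2259, 1758, 1980.1, 1818 and 1506 in combination tumours and at 2671, 2439, 3654, 3041 and 3159 in untreated tumours. No treated tumour reached the untreated range, and the log2 fold changes were -0.82 ± 0.20 (adjusted p = 0.0157), -1.18 ± 0.20 (adjusted p = 0.000237) and -0.68 ± 0.21 (adjusted p = 0.016) for beta-glucan, anti-CD40 and the combination. Its relative Bnip3l (Nix), which also marks mitochondria for removal, ranged from 623 to 987 normalized counts with a median of 799.8 in beta-glucan tumours, from 738 to 1424 with a median of 947 in anti-CD40 tumours, and stood at 1009.7, 874, 867, 1400.0 and 726 in combination tumours and at 1019.9, 750.1, 1334, 1223 and 1453 in untreated tumours. The groups overlapped, and Bnip3l passed in none (adjusted p 0.173, 0.661 and 0.419).

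Car9, Vegfa and Adm fell with anti-CD40 and with the combination. Car9, a carbonic anhydrase that acidifies the surroundings of hypoxic cells, ranged from 57.0 to 176 normalized counts with a median of 64.8 in beta-glucan tumours, from 2.72 to 203 with a median of 37.6 in anti-CD40 tumours, and stood at 23.2, 54.2, 36.7, 5.31 and 43.6 in combination tumours and at 333, 482, 536, 212 and 65.1 in untreated tumours. Combination tumours did not overlap the untreated group, and the log2 fold change was -3.28 ± 0.84 (SE), adjusted p = 0.00434, or 9.71-fold lower, beside -2.98 ± 0.81 (adjusted p = 0.0119) with anti-CD40. With beta-glucan Car9 gave -1.64 ± 0.81 (adjusted p = 0.271). Vegfa, the main growth factor for blood vessels, ranged from 469.5 to 834 normalized counts with a median of 644 in beta-glucan tumours, from 185 to 1068 with a median of 290.4 in anti-CD40 tumours, and stood at 311, 814, 454, 142 and 296 in combination tumours and at 942, 1654, 1559, 983 and 765 in untreated tumours. The anti-CD40 and combination groups each reached the untreated range with 1 tumour, with log2 fold changes of -1.61 ± 0.40 (adjusted p = 0.00695) and -1.71 ± 0.42 (adjusted p = 0.00314). Endothelial markers were higher at the same time, with 4 of 9 called higher with anti-CD40 and 7 of 9 with the combination. Adm, the vessel-dilating peptide adrenomedullin, ranged from 171 to 276 normalized counts with a median of 189 in beta-glucan tumours, from 43.2 to 248 with a median of 132 in anti-CD40 tumours, and stood at 167, 194, 99.2, 197 and 109.6 in combination tumours and at 365, 461, 580.0, 336 and 193 in untreated tumours. It fell by 1.46 ± 0.35 with anti-CD40 (adjusted p = 0.00443) and by 1.30 ± 0.36 with the combination (adjusted p = 0.00727).

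Ndrg1 and Ero1l were called lower in the same 2 groups, and Kdm3a in 1 of them. Ndrg1, a stress-induced gene often used as a hypoxia marker, ranged from 1426 to 2905 normalized counts with a median of 1579 in beta-glucan tumours, from 746 to 1762 with a median of 1544 in anti-CD40 tumours, and stood at 1012, 1574, 1106, 928 and 1165 in combination tumours and at 2863, 4248, 4695, 2655 and 1299.8 in untreated tumours. The lowest untreated value belongs to tumour 6, and the log2 fold changes were -1.04 ± 0.28 (adjusted p = 0.00987) with anti-CD40 and -1.34 ± 0.29 (adjusted p = 0.000858) with the combination. Ero1l, the oxidase that drives disulfide formation in the endoplasmic reticulum, ranged from 526.3 to 1191 normalized counts with a median of 699.7 in beta-glucan tumours, from 264 to 791 with a median of 534 in anti-CD40 tumours, and stood at 598, 579, 527, 381 and 425 in combination tumours and at 1214, 768, 1522, 1256 and 1022 in untreated tumours. It did not overlap in the combination group, with -1.19 ± 0.25 (adjusted p = 0.0008), and gave -1.11 ± 0.24 (adjusted p = 0.00215) with anti-CD40. Kdm3a, a histone demethylase induced by HIF, was called lower with the combination alone (-1.34 ± 0.46, adjusted p = 0.0263), a call lost without untreated tumour 2 or combination tumours 3 or 4 (-1.27 to -0.96), beside -0.95 ± 0.44 (adjusted p = 0.14) with anti-CD40.

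Hif1a, Egln1 and Egln3 were not called lower in any group. Hif1a, which encodes the HIF alpha subunit itself, ranged from 1986 to 2701 normalized counts with a median of 2139.7 in beta-glucan tumours, from 1307 to 2942 with a median of 1801 in anti-CD40 tumours, and stood at 3116, 2487, 2749, 2524 and 1665 in combination tumours and at 1608, 959, 1686, 1839.8 and 2398 in untreated tumours. It rose with the combination (0.59 ± 0.23, adjusted p = 0.0457), and that call was lost in 15 of the 22 fits that left out 1 tumour, with 0.40 without untreated tumour 2. The prolyl hydroxylase genes Egln1 and Egln3, themselves known HIF targets, passed in no group, with adjusted p of 0.0954 and 0.0929 with anti-CD40 and 0.0501 and 0.675 with the combination. HIF-alpha is controlled mainly through protein stability, which these data do not measure.

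The remaining hypoxia genes passed in no comparison with untreated tumours. Pdk1, the kinase that holds pyruvate out of the mitochondria, ranged from 229.6 to 427 normalized counts with a median of 357 in beta-glucan tumours, from 263 to 782 with a median of 344 in anti-CD40 tumours, and stood at 419, 286, 296, 586 and 373 in combination tumours and at 353, 401, 400.1, 349 and 398 in untreated tumours. Its treated and untreated values overlapped, with log2 fold changes of -0.21 ± 0.24, 0.01 ± 0.24 and -0.0050 ± 0.25. The collagen hydroxylase P4ha1 lay below every untreated tumour in all 6 anti-CD40 tumours without passing (log2 fold change -0.66 ± 0.24, adjusted p = 0.0586). P4ha2, Plod1 and Plod2, which also modify collagen, gave combination values of -0.51 ± 0.31, 0.81 ± 0.32 and 0.28 ± 0.21. Ddit4, a stress inhibitor of mTOR signalling, gave 0.28 ± 0.21, 0.44 ± 0.21 and 0.41 ± 0.22 in the 3 groups. Ankrd37 was at most 101 normalized counts in any tumour, and its adjusted p was 0.954, 0.912 and 0.801.

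Set against each other, the treatments differed in few of these genes. Between anti-CD40 and beta-glucan tumours 0 of 37 were called by limma, 0 by edgeR and 0 by DESeq2, against 2.10%, 1.77% and 4.44% of all genes. At an unadjusted p under 0.05 there were 3 of 37 (8.11%), against 14.4% of all genes. The interval of the difference remains wide: it was -0.75 to 0.02 for Bnip3, -0.96 to 0.07 for Pfkl and -2.85 to 0.17 for Car9 (95%, log2). Combination against beta-glucan gave 1 of 37, Eno3 lower (-1.23 ± 0.35, adjusted p = 0.0192), against 7.61% lower and 14.1% in either direction among all genes. Combination against anti-CD40 again gave Eno3 alone, lower (-1.38 ± 0.35, adjusted p = 0.0434), against 0.826% of all genes lower and 1.48% in either direction, and this call was lost in 13 of the 22 fits that left out 1 tumour, with -1.10 without combination tumour 4. Without combination tumour 4 the call against beta-glucan was lost as well (-0.95).

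Whether the combination equals the sum of the single effects was tested as an interaction. limma called 0 of 37 genes, against 0.0210% of all genes. At an unadjusted p under 0.05 there were 9 of 37 (24.3%), against 8.36% of all genes. edgeR called 0 of the 37, and DESeq2 called 3 (Pgam1, Eno3 and Bnip3), against 98 of all 14278 genes (0.686%) with DESeq2. The interaction was above 0 on the log2 scale for 32 of 37 genes, with medians of 0.60 for glycolysis and 0.37 for hypoxia beside -0.06 over all genes. For a gene that fell with both agents, this direction means that the combination lay less far below untreated than the sum of both single effects. The same untreated tumours enter the interaction of every gene, so the 32 are not separate observations. For Bnip3 it was 1.32 ± 0.29 (adjusted p = 0.119), for Pfkl 1.31 ± 0.39 (adjusted p = 0.255) and for Eno3 -2.47 ± 0.49 (adjusted p = 0.0781).

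Other genes of the pathways, listed apart from the 37, did not move as one. Of 15 further glycolysis genes tested, 1 rose and 0 fell with beta-glucan, 3 rose and 1 fell with anti-CD40, and 5 rose and 3 fell with the combination. Hk3, a hexokinase of myeloid cells, rose 5.28-fold with anti-CD40 (adjusted p = 0.00105) and 10.6-fold with the combination (adjusted p = 1.53e-05). Ldhb, the lactate dehydrogenase subunit that favours pyruvate formation, rose by 1.43 ± 0.31 and 2.19 ± 0.33 (log2) in the same groups, in the opposite direction to Ldha. Pfkfb4, which makes the activator of phosphofructokinase, rose in all 3 groups (0.95, 0.78 and 1.17). The lactate transporter Slc16a1 (MCT1) fell with anti-CD40 (-1.31 ± 0.23, adjusted p = 0.000263) and the combination (-1.27 ± 0.24, adjusted p = 0.000225). Anti-CD40 tumours had 8 of 11 macrophage markers called higher, and combination tumours 10. Of 8 neutrophil markers, 4 rose and 1 fell with anti-CD40, and 7 rose with the combination. The part of these cells in the Hk3 difference was not tested.

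Of 23 further hypoxia targets, 1 rose and 1 fell with beta-glucan, 0 rose and 6 fell with anti-CD40, and 2 rose and 6 fell with the combination, with medians of -0.29, -0.55 and -0.40. Hilpda, a lipid droplet protein, gave -1.84 ± 0.38 (adjusted p = 0.00171) with anti-CD40 and -1.70 ± 0.40 (adjusted p = 0.00213) with the combination. Tfrc, the transferrin receptor, gave -1.24 ± 0.38 (adjusted p = 0.0251) and -1.93 ± 0.40 (adjusted p = 0.000608). Mxi1, a MYC antagonist, fell in all 3 groups (-0.69, -0.67 and -0.95). Heme oxygenase Hmox1 rose with beta-glucan (0.92 ± 0.27, adjusted p = 0.043) and with the combination (1.38 ± 0.29, adjusted p = 0.000628). Of 12 genes of the HIF pathway itself, 1 rose and 0 fell with beta-glucan, 1 rose and 1 fell with anti-CD40, and 2 rose and 2 fell with the combination. Epas1, the HIF-2 alpha subunit known from endothelium and macrophages, rose in all 3 groups (1.04 ± 0.26, 0.90 ± 0.26 and 2.02 ± 0.28, adjusted p = 0.0178, 0.0186 and 5.62e-06). Hif1an, an inhibitor of HIF activity, fell with the combination (-0.98 ± 0.23, adjusted p = 0.0019), and Vhl, which targets HIF for destruction, rose (0.70 ± 0.19, adjusted p = 0.00707). The other 2 calls were Ep300, a coactivator of HIF, lower with anti-CD40 (-0.45 ± 0.13, adjusted p = 0.0142), and Hif3a, a further HIF alpha subunit, lower with the combination (-1.48 ± 0.54, adjusted p = 0.0366).

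Neighbouring metabolism was mostly not called. Of 28 genes of the citric acid cycle and respiratory chain, 0, 1 and 1 rose and 0, 0 and 2 fell with beta-glucan, anti-CD40 and the combination (limma), with 2, 2 and 4 at an unadjusted p under 0.05. Of 7 genes of the pentose phosphate route, 1, 1 and 1 rose and 0, 0 and 1 fell in the same groups. The riser was Taldo1, a transaldolase, in all 3 groups (0.50, 0.95 and 0.98).

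Cell content of the tumours moved with treatment as well, and the calls were recomputed with it. Epithelial markers were called lower for 2, 8 and 11 of 17 genes with beta-glucan, anti-CD40 and the combination, and higher for 0, 0 and 2, and acinar markers higher for 0, 5 and 8 of 31. Tumours with over 30% acinar counts were 4 of 6 with anti-CD40, 3 of 5 with the combination and 0 in the other 2 groups. Without those 7 tumours, 4 of 37 genes were called with anti-CD40 (Pfkl, Pgk1, Bnip3 and Ndrg1), or 10.8% against 18.3% of all genes. With the combination 9 were called (Eno2, Ldha, Ndrg1, Ero1l, Car9, Vegfa, Adm, Hif1a and Kdm3a), or 24.3% against 21.6% of all genes. The medians were then -0.43 and -0.32 for glycolysis and -0.35 and -0.40 for hypoxia, with anti-CD40 and the combination. With the acinar level as a covariate the calls numbered 5 with anti-CD40 (13.5%, against 11.4% of all genes) and 6 with the combination (16.2%, against 26.5%), with medians of -0.44 and -0.38 for glycolysis and -0.40 and -0.27 for hypoxia. With the epithelial level as a covariate 4 were called with anti-CD40 (Pfkl, Bnip3, Slc16a3 and Aldoc), or 10.8% against 5.08% of all genes, and 0 with the combination, against 2.89% of all genes, with glycolysis medians of -0.72 and -0.72 and hypoxia medians of -0.49 and -0.44, and the median SE of the 37 genes was 0.34 and 0.45, against 0.28 and 0.29 without it. Bnip3 and Pfkl with anti-CD40 were the 2 of 31 calls against untreated tumours that were kept in every fit tried.

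**Figure D4:**
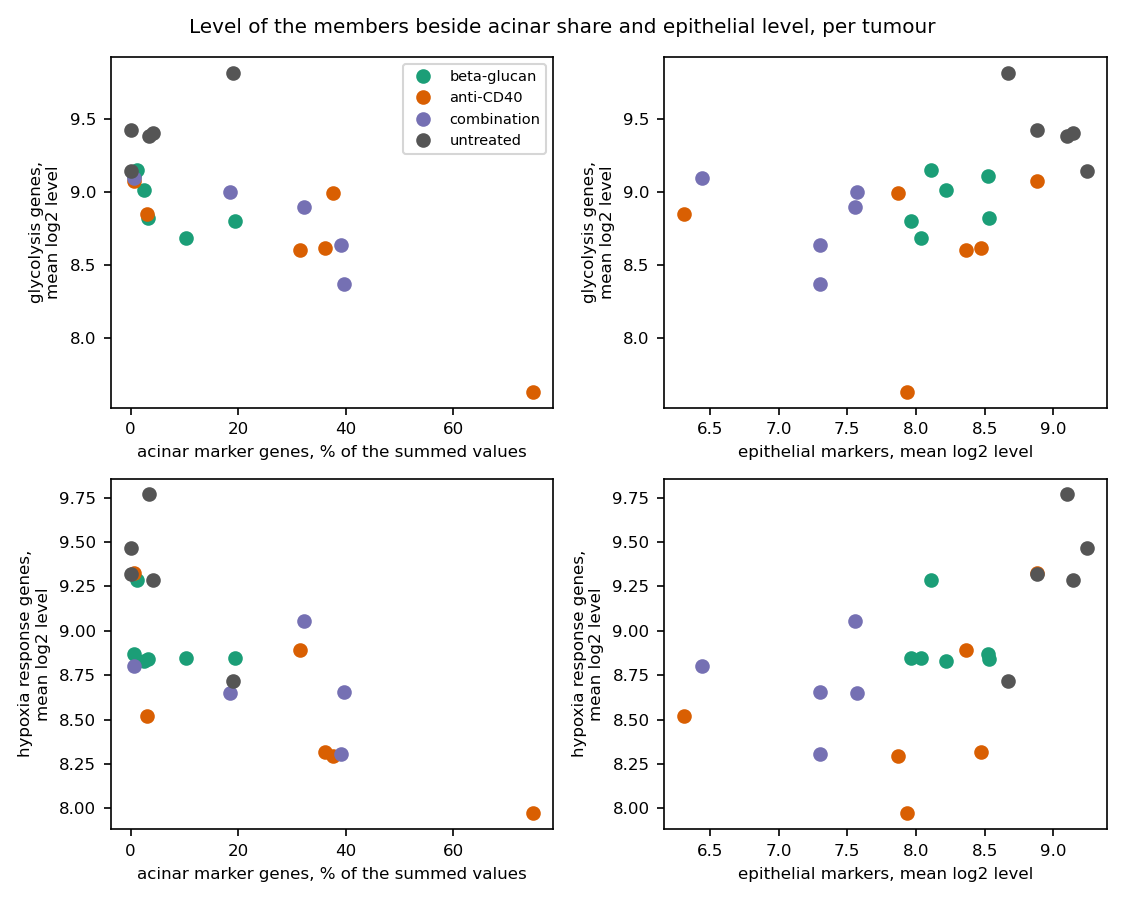
Mean log2 level of the glycolysis and the hypoxia subset per tumour (y axes) against the acinar share of counts and the epithelial marker mean (x axes), coloured by group. Anti-CD40 tumour 6, with 74.9% acinar counts, has the lowest mean of both subsets, 7.63 and 7.97.

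**Figure D5:**
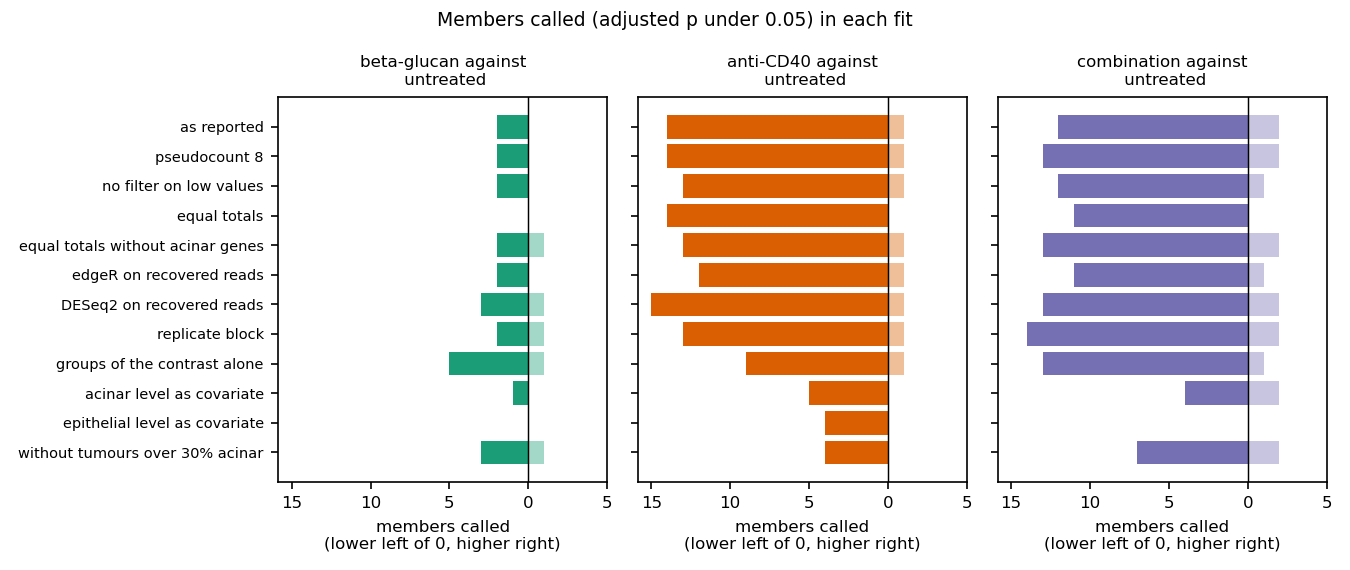
Number of the 37 genes called lower (left of 0) and higher (right of 0) in each treated group against untreated tumours, for the reported fit and each alternative (rows). With anti-CD40 the count of 15 drops to 5, 4 and 4 with an acinar covariate, an epithelial covariate and without tumours over 30% acinar. With the combination the count of 14 drops to 6, 0 and 9 in the same order.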

How the data were processed

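The deposited table gives normalized counts per gene for 22 tumours (unit signal). Per the labels' protocols these are QuantSeq FWD 3′ libraries from 100 ng of RNA, and the submitters' processing notes name STAR, DESeq2 and mm10. For the counting program, strand setting and annotation, the sources used here name none. From the step of each column, whole reads were recovered for 100% of 395252 deposited signal values (within 0.001 read), which gave the depths.

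The 14278 genes that reached a normalized count of 10 in 5 or more tumours were tested as log2(value + 1) with limma 3.58.1, with 4 group means, trend and robust moderation, and adjusted p under 0.05 as a call. On the recovered reads, edgeR 4.0.16 (quasi-likelihood) called 2, 13 and 12 of the 37 genes with beta-glucan, anti-CD40 and the combination against untreated tumours, and DESeq2 1.42.0 called 4, 16 and 15. For edgeR these were 5.41%, 35.1% and 32.4% of the 37, against 5.46%, 17.1% and 32.5% of all genes. For DESeq2 they were 10.8%, 43.2% and 40.5%, against 8.56%, 21.9% and 36.4%. Intervals are 1.96 SE either side. On simulated data for anti-CD40 against untreated (14193 genes), 39 and 33 of 50 genes changed by -2 and 2 were called, 15 and 12 of 50 changed by -1 and 1, and 8 of the unchanged genes. The simulated spread of each gene was taken over all 22 tumours, differences between groups included.

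Of the 37 genes, those called (up to 12 by smallest p in each contrast) and 9 chosen ones are given by tumour or range. Pfkp, Gapdh, Bnip3l and Pdk1 are given so as well, though not called. Of each other list up to 4 called genes with the smallest p are named, but of the HIF pathway every called gene. The members and all other lists were chosen with earlier results of these data known. Alternatives were another pseudocount, no filter, equal totals with and without acinar genes, both count tests, a replicate block, groups of the contrast alone, acinar or epithelial level as a covariate, tumours over 30% acinar left out, and each tumour left out. Names turned into dates numbered 23. No pair of libraries agreed within sampling noise (lowest chi-square per degree of freedom 12.7 over 50 pairs).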

Additional observations from a re-analysis of the deposited data

Results flagged for a closer look

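In 13 of the 148 sets of 1 gene in 1 group, a single tumour stood apart from the rest of its group by Dixon's test, where chance gives about 1 in 20, or 7.4. Anti-CD40 tumour 6, with 74.9% acinar counts, was the low tumour for Hk1 (378 normalized counts), Ldha (1557) and Egln3 (8.15). In combination tumour 4, Slc2a1 stood low at 324 and Eno3 at 27.9. Untreated tumour 6 was low for Slc2a3 (56.3) and Ankrd37 (0.0) and high for Eno2 (101) and Plod1 (1459). Ldha was also low in untreated tumour 2, at 4119.7. Ndrg1 stood high at 2904.5 in beta-glucan tumour 2 and low at 746 in anti-CD40 tumour 5. Egln1 stood high at 892 in anti-CD40 tumour 1.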

How the results depend on the processing

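Of 31 calls against untreated tumours, 21 were kept in every fit that left out 1 tumour, 2 (Bnip3 and Pfkl with anti-CD40) in every other alternative, and 30 kept their direction in all. The exception was Hif1a with the combination, at -0.019 with the epithelial covariate. With anti-CD40 the 15 calls became 5 with the acinar covariate, 4 with the epithelial covariate and 4 without tumours over 30% acinar, while the calls over all genes, 2650 in the reported fit, became 1630, 725 and 2607. With the combination the 14 became 6, 0 and 9 in the same 3 fits, and the 4849 over all genes became 3789, 413 and 3081. With beta-glucan the 2 became 0 with equal totals, 4 with DESeq2, 6 with the contrast's own groups, 1 with the acinar covariate, 0 with the epithelial covariate and 4 without tumours over 30% acinar. Of all genes, 1.81%, 8.56%, 9.21%, 6.84%, 1.72% and 9.07% were called in these fits, in that order. Combination against beta-glucan gave 2 with pseudocount 8, with DESeq2 and with the replicate block, 4 with its own groups, and 0 with the epithelial covariate and without tumours over 30% acinar. Combination against anti-CD40 gave 0 with no filter, equal totals, edgeR, its own groups, the epithelial covariate, and without tumours over 30% acinar. Of all genes, 1.05%, 0.056%, 1.09%, 0.042%, 0.028% and 0% were called in the same order. The interaction gave 3 with DESeq2 (against 0.686% of all genes) and 1 (Eno3) with the replicate block (against 0.056%), and could not be fitted on its own groups. Leaving out 1 tumour at a time gave 0 to 3 calls with beta-glucan, 12 to 19 with anti-CD40, 12 to 17 with the combination, 0 to 3 for combination against beta-glucan, 0 to 1 for combination against anti-CD40 and 0 to 1 for the interaction. Calls over all 14278 genes moved too. With beta-glucan they numbered 507 without beta-glucan tumour 5 (0 of the 37) and 1098 without untreated tumour 6 (3 of the 37). Equal totals moved the median of all genes to -0.56 with anti-CD40 and -0.45 with the combination. It moved the glycolysis medians to -1.29 and -1.13 and the hypoxia medians to -1.22 and -0.95, or -0.73, -0.68, -0.66 and -0.51 relative to all genes. The glycolysis medians were -0.44 and -0.38 with the acinar covariate, and -0.43 and -0.32 without tumours over 30% acinar, for anti-CD40 and the combination, and the hypoxia medians -0.40 and -0.27, and -0.35 and -0.40. The hypoxia median with anti-CD40 ran from -1.03 to -0.53 when 1 tumour was left out. The cause of these moves was not tested. Same-numbered tumours did not deviate together (8 of 30 pairs above a correlation of 0.1, from -0.27 to 0.34, and 5 of 22 tumours nearest to their own number), so the replicate block, which gave 3, 14 and 16 calls against untreated tumours, pairs numbers only. With that block 6.79%, 18.8% and 33.5% of all genes were called. The combination tumour titled 5 is described as number 6 in the labels, so its place in the block and the pairs is uncertain. Pgk1, Gapdh and Ankrd37 had low counts in every group. With 5 or 6 tumours a group a change of 1 log2 unit was often missed in simulated data. The simulated spread took in differences between groups, so that share is not the power for these genes.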

Other observations

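Untreated tumour 6 was the highest of its group for 10 of 19 glycolysis genes and the lowest for 11 of 18 hypoxia genes, and its glycolysis mean exceeded its hypoxia mean by 1.10 log2 units, against -0.38 to 0.12 in the other untreated tumours. Beta-glucan tumour 2 was the highest of its group for 7 of 19 glycolysis genes and 11 of 18 hypoxia genes, and beta-glucan tumour 5 the lowest for 11 of 19 and 5 of 18. Anti-CD40 tumour 1, with the lowest acinar share of its group, was the highest for 6 of 19 glycolysis genes and 10 of 18 hypoxia genes, and tumour 6 the lowest for 13 of 19 and 6 of 18. Combination tumour 5 was the lowest for 10 of 19 glycolysis genes and 4 of 18 hypoxia genes, and combination tumour 4 for 5 of 19 and 10 of 18. No test of these ranks was run.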
